A study of Mus musculus with 7 samples.

Results

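The DNA replication machinery was followed in Suz12 conditional knockout (Suz12 cKO) and wild type alveolar macrophages, which live in the air spaces of the lung. Suz12 belongs to PRC2, a polycomb complex that silences genes. The machinery was taken as 51 genes, chosen by their textbook role in origin licensing, helicase loading and firing, DNA synthesis, clamp loading, nucleotide supply and replication-coupled chromatin assembly, out of the 27179 genes counted. Measured values did not enter the choice, but results of these data were known when it was made. All 51 were found in the table and passed the filter on low counts. Messenger RNA was sequenced from flow-sorted cells of C57BL/6 bone marrow chimeras, with 3 Suz12 cKO and 4 wild type libraries that the design text calls biological replicates. Recipients of both groups carried Ly5.1, were lethally irradiated, and received 90% test marrow (Ly5.2, either Suz12 cKO or wild type) together with 10% wild type Ly5.1 marrow. The sources used here do not give the Cre driver, the deleted exons, the age of the mice, or whether macrophages of competitor or host origin were gated out.

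Chromosomal replication starts at origins that are marked by the origin recognition complex, on which Cdc6 and Cdt1 load rings of Mcm2 to Mcm7, the core of the replicative helicase. When S phase begins, the kinase Cdc7 with Dbf4 and the cyclin-dependent kinases turn loaded rings into active helicases by adding Cdc45 and the GINS proteins, and polymerases then copy the strands with the sliding clamp Pcna. Many of these genes are switched on at the G1/S boundary by E2F transcription factors and are low in resting cells. Alveolar macrophages are long-lived cells that can maintain themselves in the lung by local division.

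Libraries held 63923829 to 70473901 counts in Suz12 cKO and 48104653 to 79281431 in wild type, of which 49909 to 60738 and 58695 to 108469 fell on the 51 genes. These totals exceed the 14 to 20 M reads per sample that the design text states, and the sources used here do not say why. Values per library are CPM, counts scaled to a common library total after TMM correction, in order of replicate number. A ± is the SD over 3 Suz12 cKO or 4 wild type libraries. Suz12 stood at 22.1, 23.6 and 15.1 CPM in Suz12 cKO, against 56.5, 56.3, 73.9 and 68.9 CPM in wild type (log2 fold change -1.65, SE 0.18, adjusted p = 0.00134). Of 20 alveolar macrophage markers 7 were higher and 2 lower (35% and 10%, against 6.28% and 4.02% of all tested genes). Their summed level was 89967 to 95163 CPM in Suz12 cKO and 76672 to 94324 CPM in wild type. Lyz2 and Chil3, the highest genes of the list, gave the largest part of these sums, which therefore say little of the other markers. Siglecf, a defining surface marker of these cells, stood at 221, 235 and 198 CPM in Suz12 cKO, against 313, 318, 275 and 238 CPM in wild type (log2 fold change -0.39, SE 0.12, adjusted p = 0.0772). Markers of other cell types also differed between libraries, and whether other cells or the macrophages themselves made this RNA was not tested. Of 14 markers of monocytes and interstitial macrophages 4 were higher (28.6%, against 6.28% of all tested genes) and 0 lower in Suz12 cKO. Their sums were 5516 to 7887 CPM in Suz12 cKO and 2105 to 4298 CPM in wild type. Wild type replicate 2 alone gave the upper end, the other 3 wild type libraries being at 2105 to 2327 CPM. Haemoglobin transcripts summed to 192 and 155 CPM of the unscaled total in Suz12 cKO replicates 1 and 2 and 56.6 CPM in wild type replicate 2, against 2.58 CPM in Suz12 cKO replicate 3 and 2.29 to 5.17 CPM in the other wild type libraries. The same 3 libraries held more RNA of alveolar epithelium markers, with sums of 41.6 and 80.7 CPM in the Suz12 cKO and 98.2 CPM in the wild type library. Suz12 cKO replicate 3 was at 20.9 CPM and the others at 16.01 to 28.1 CPM. Of 8 tested neutrophil markers 4 were higher in Suz12 cKO (50%, against 6.28% of all tested genes), namely S100a8, Retnlg, Csf3r and Cxcr2. The whole list summed to 187 to 257 CPM in Suz12 cKO and 114 to 139.6 CPM in wild type, and Ly6g and Camp were at 0 in all 7 libraries. Retnlg, a gene of mature neutrophils, was at 1.06, 1.93 and 0.224 CPM in Suz12 cKO, against 0, 0.0328, 0 and 0.0206 CPM in wild type. Erythroid markers, haemoglobins included, summed to 1.92 to 150.0 CPM in Suz12 cKO and 2.35 to 42.1 CPM in wild type. Alas2, the erythroid haem synthesis enzyme, was at 3.05, 5.97 and 0 CPM in Suz12 cKO, against 0.560, 0.837, 0.255 and 0.268 CPM in wild type (log2 fold change 2.64, SE 1.38, adjusted p = 0.288). Slc4a1, Epb42 and Tspo2 were at 0 in all 7 libraries. Markers of B and plasma cells summed to 49.6 CPM in Suz12 cKO replicate 2 and 67.8 CPM in wild type replicate 2, against 3.58 and 9.59 CPM in the other Suz12 cKO and 1.62 to 2.39 CPM in the other wild type libraries.

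Expression of the replication machinery was lower in Suz12 cKO macrophages. Of the 51 genes, 27 fell and 0 rose (edgeR quasi-likelihood test, Benjamini-Hochberg adjusted p under 0.05 over all 14436 genes tested), and 50 of the 51 estimates lay below 0. By comparison, 4.02% of all tested genes were called lower and 6.28% higher. The median log2 fold change of the 51 was -0.69, equal to 0.622 of the wild type level, and it was 0.00 over all tested genes. Every Suz12 cKO library lay below every wild type library in 39 of the 51 genes and above in 0, where all tested genes gave 11.5% and 14.1%. Summed over the 51 genes, the level was 788 to 849.9 CPM in Suz12 cKO and 1200.1 to 1350.2 CPM in wild type. In these bulk samples fewer dividing cells and less replication RNA per cell cannot be told apart.

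**Figure D1:**
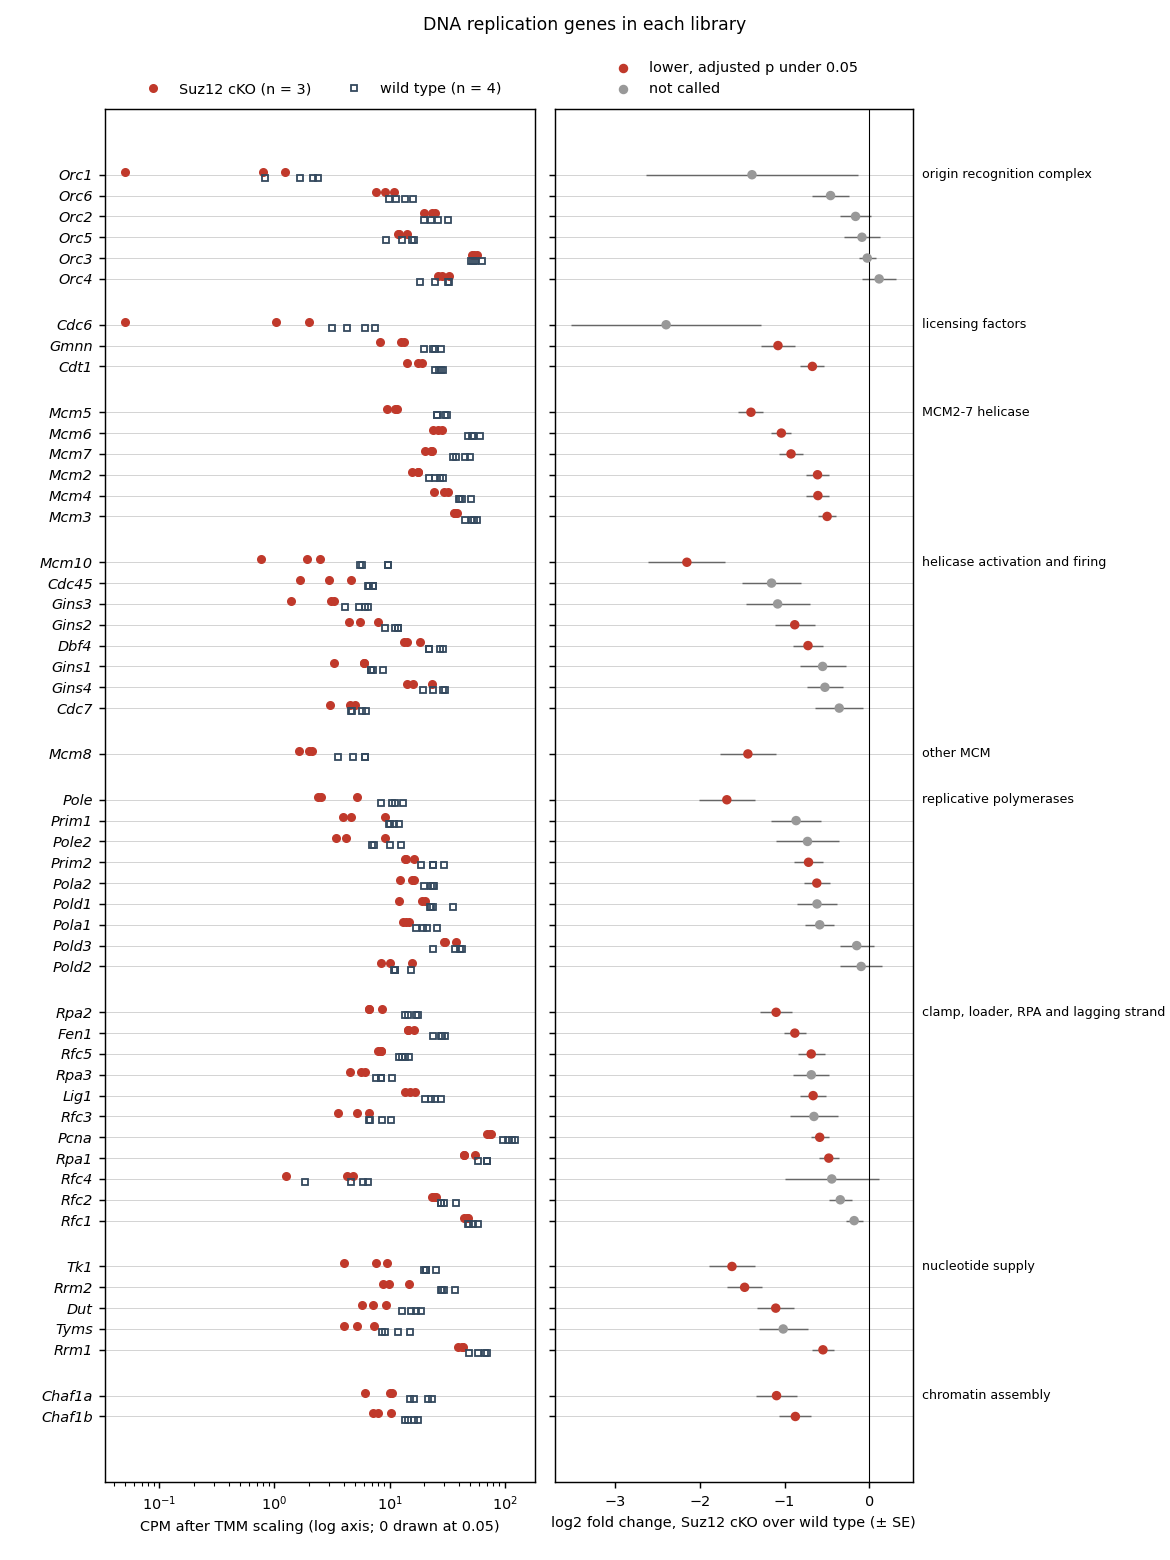
Left, CPM after TMM scaling (log axis) of each of the 51 replication genes, with 1 filled circle per Suz12 cKO library and 1 open square per wild type library; right, the log2 fold change of Suz12 cKO over wild type with its standard error, red where called lower. Circles lie left of squares in 39 genes, and Orc3, Orc4 and Orc5 sit near a log2 fold change of 0.

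The share of called genes varied along the pathway, and each count by role below is to be read beside the 4.02% of all tested genes called lower. Whether the role groups differ was not tested. In the origin recognition complex, which binds origins, edgeR called 0 of the 6 subunit genes, too few genes to set this apart from the share of all genes. An unadjusted p under 0.05 was found for 0 of them, and the share of all genes at that cut is not given here. The median log2 fold change was -0.13. Orc3, with the largest p of the 51, stood at 52.1, 57.7 and 54.8 CPM in Suz12 cKO, against 63.3, 51.3, 55.9 and 52.8 CPM in wild type (log2 fold change -0.03, SE 0.10, adjusted p = 0.923). Those libraries overlapped, as they did for each of the 6 genes. Orc2 was at 19.9, 24.6 and 23.5 CPM in Suz12 cKO, against 26.2, 32.4, 22.97 and 19.9 CPM in wild type (log2 fold change -0.16, SE 0.18, adjusted p = 0.651). In the GENCODE annotation 29.8% of its exon bases are also exons of Nif3l1 on the other strand, but the RefSeq spans of these genes do not overlap. Which annotation was counted is not given. Orc4 was at 28.7, 32.9 and 26.5 CPM in Suz12 cKO, against 32.9, 24.8, 32.4 and 18.4 CPM in wild type (log2 fold change 0.12, SE 0.20, adjusted p = 0.802), and Orc5 had a log2 fold change of -0.09 (adjusted p = 0.867). The estimates of Orc2, Orc3, Orc4 and Orc5 each changed sign under at least 1 other setting. The subunits with the lowest estimates were Orc1, an ATPase subunit whose amount varies through the cell cycle in mammals, and Orc6. Orc1 was barely detected, at 1.23, 0.792 and 0 CPM in Suz12 cKO, against 0.822, 2.38, 2.18 and 1.67 CPM in wild type (log2 fold change -1.38, SE 1.25, adjusted p = 0.569). No Orc1 count was found in Suz12 cKO replicate 3, which allows up to 0.0420 CPM (3 counts, counting error only). Orc6 stood at 9.14, 10.9 and 7.68 CPM in Suz12 cKO, against 15.9, 13.5, 9.98 and 11.4 CPM in wild type (log2 fold change -0.46, SE 0.22, adjusted p = 0.240), with 2 of the 3 Suz12 cKO libraries below the lowest wild type library.

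Of the 3 licensing genes, whose products load the helicase at origins in G1 or hold this loading back, 2 fell (median log2 fold change -1.08). Gmnn encodes geminin, the inhibitor that keeps Cdt1 from licensing origins again within a cycle, and its level was 8.25, 12.6 and 13.3 CPM in Suz12 cKO, against 24.6, 19.8, 24.01 and 27.96 CPM in wild type. All 3 Suz12 cKO libraries were below the 4 wild type libraries (log2 fold change -1.08, SE 0.20, adjusted p = 0.0125). Its target Cdt1 also fell, at 14.2, 17.7 and 19.1 CPM in Suz12 cKO, against 29.2, 27.8, 24.7 and 26.8 CPM in wild type (log2 fold change -0.67, SE 0.14, adjusted p = 0.0188). The log2 ratio of Cdt1 to Gmnn counts was 0.60 ± 0.16 in Suz12 cKO and 0.18 ± 0.25 in wild type, and this difference did not pass an exact permutation test (two-sided, p = 0.114, adjusted over 8 ratios p = 0.183). Between 3 and 4 libraries the smallest two-sided p of that test is 0.0571. The loader gene Cdc6 had the most negative estimate of the 51 and was not called. It was at 1.03, 1.98 and 0 CPM in Suz12 cKO, against 7.53, 3.18, 4.24 and 6.17 CPM in wild type, without overlap between genotypes (log2 fold change -2.40, SE 1.12, adjusted p = 0.234). The call of Cdt1 was lost without Suz12 cKO replicate 1, Suz12 cKO replicate 2 or wild type replicate 1, where its adjusted p reached 0.0597, while Gmnn was called in each of the 7 fits that left out a library.

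All 6 genes of the helicase ring, Mcm2 to Mcm7, fell, with log2 fold changes between -1.40 and -0.50 and no overlap between genotypes in any of them. Mcm5 (Entrez 17218, chromosome 8, 75109468 to 75128439 in GRCm38) had the largest estimated decrease of the ring, to 0.380 of the wild type level. Its libraries held 11.7, 9.44 and 11.2 CPM in Suz12 cKO, against 31.7, 30.2, 25.9 and 25.8 CPM in wild type (log2 fold change -1.40, SE 0.15, adjusted p = 0.00116). Mcm6 was at 26.4, 23.7 and 28.6 CPM in Suz12 cKO, against 52.9, 61.7, 48.6 and 52.6 CPM in wild type (log2 fold change -1.04, SE 0.12, adjusted p = 0.00156). Mcm7, whose introns host microRNA genes, was at 20.5, 23.4 and 22.9 CPM in Suz12 cKO, against 45.5, 35.3, 38.1 and 50.1 CPM in wild type (log2 fold change -0.92, SE 0.14, adjusted p = 0.00516). In each of these 3 genes the highest Suz12 cKO library lay under the lowest wild type library. The smallest estimates in the ring were those of Mcm3, Mcm4 and Mcm2. Mcm2 stood at 15.6, 17.5 and 17.8 CPM in Suz12 cKO, against 29.4, 27.3, 24.9 and 22.1 CPM in wild type (log2 fold change -0.61, SE 0.14, adjusted p = 0.0265). Mcm3 and Mcm4 had log2 fold changes of -0.50 (adjusted p = 0.0182) and -0.61 (adjusted p = 0.0244). Although the proteins form a ring together, the estimates were not alike, and a difference in change between subunits was not tested. The calls of Mcm5, Mcm6 and Mcm7 stood in each fit that left out a library. Those of Mcm2, Mcm3 and Mcm4 were each lost in 4 of the 7 such fits, with adjusted p up to 0.0837, 0.0632 and 0.0744. Each of the 7 libraries other than wild type replicate 2 ended at least 1 of these 3 calls.

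Promoters of the 51 genes, those of the ring among them, were read from RefSeq (GRCm38.p6), as windows of 250 bases before and 50 bases after a transcript start. For Mcm5, Mcm7 and Orc3 that start lies inside the gene's annotated span and not at its end. Windows were found for 43 of the 51 members. An E2F-type match, meaning TTTCCCGC, TTTCGCGC, TTTGCCGC or TTTGGCGC on either strand, was present for 16 of those 43 genes (37.2%), against 485 of 10775 other tested genes with a window (4.50%) and 2.60% of all 27025 genes in the table of promoters. Matches were found for 7 of the 22 members with a window that fell and for 9 of the 21 that were not called. None of these shares was tested. The windows below, each 5′ to 3′ on the strand of its gene with E2F-type matches in capitals, show the 4 ring genes that hold a match, then Rrm2, which fell without one in this window, and Orc3, which holds one and was not called. The Mcm3, Mcm6 and Mcm7 windows were chosen after their matches had been seen. Another Mcm7 window (chr5:138171217-138171516) held no E2F-type match and is not printed. Of the other ring genes, Mcm2 fell without a match in its window, and Mcm4 had no window. In Mcm5 and in the upstream site of Mcm6, 2 matches on opposite strands overlap.
Mcm3 (chr1:20820263-20820562, minus strand): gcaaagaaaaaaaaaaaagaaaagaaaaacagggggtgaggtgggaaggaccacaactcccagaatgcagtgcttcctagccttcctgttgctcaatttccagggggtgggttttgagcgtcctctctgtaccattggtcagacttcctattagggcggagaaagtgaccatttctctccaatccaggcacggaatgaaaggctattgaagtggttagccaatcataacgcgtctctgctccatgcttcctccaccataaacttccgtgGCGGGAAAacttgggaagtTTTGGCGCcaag
Mcm5 (chr8:75109259-75109558, plus strand): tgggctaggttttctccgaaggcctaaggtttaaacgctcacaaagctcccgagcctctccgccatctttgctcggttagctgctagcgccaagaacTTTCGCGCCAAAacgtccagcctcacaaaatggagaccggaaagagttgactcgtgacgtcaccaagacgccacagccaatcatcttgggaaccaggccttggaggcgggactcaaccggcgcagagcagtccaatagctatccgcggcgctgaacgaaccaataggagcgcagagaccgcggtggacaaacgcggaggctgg
Mcm6 (chr1:128359656-128359955, minus strand): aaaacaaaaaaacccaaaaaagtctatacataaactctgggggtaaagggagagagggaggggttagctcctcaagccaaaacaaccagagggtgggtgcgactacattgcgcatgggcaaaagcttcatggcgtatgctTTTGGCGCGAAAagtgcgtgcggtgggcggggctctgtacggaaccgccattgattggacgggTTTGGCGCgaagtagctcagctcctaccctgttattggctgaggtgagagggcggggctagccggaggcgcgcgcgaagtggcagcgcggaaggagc
Mcm7 (chr5:138171834-138172133, minus strand): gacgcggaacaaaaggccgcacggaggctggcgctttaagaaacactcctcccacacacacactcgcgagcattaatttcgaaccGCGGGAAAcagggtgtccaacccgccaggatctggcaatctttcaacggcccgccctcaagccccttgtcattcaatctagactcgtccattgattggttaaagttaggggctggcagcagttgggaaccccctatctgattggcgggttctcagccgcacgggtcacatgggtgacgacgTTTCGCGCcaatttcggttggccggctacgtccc
Rrm2 (chr12:24708004-24708303, plus strand): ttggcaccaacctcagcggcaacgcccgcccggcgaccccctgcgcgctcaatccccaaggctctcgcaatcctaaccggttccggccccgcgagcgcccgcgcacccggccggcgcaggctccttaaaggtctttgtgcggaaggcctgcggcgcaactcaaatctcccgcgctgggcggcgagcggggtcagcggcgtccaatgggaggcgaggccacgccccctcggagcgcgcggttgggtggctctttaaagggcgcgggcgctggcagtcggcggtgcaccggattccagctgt
Orc3 (chr4:34614893-34615192, minus strand): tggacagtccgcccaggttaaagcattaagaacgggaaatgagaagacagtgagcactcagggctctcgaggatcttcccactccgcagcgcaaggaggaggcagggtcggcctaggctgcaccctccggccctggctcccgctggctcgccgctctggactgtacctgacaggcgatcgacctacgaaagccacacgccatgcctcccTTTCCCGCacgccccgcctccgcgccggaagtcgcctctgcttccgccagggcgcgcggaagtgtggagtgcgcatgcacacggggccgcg

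The overlapping matches in Mcm5 begin 153 and 149 bases upstream of the transcript start of the window. In Mcm6 the matches begin 110, 106 and 47 bases upstream. Both Mcm3 matches lie after its start, and the printed Mcm7 window holds 1 match 165 bases upstream and 1 after the start. The Orc3 match begins 41 bases upstream. These are letter matches and not measured binding sites.

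Of 8 genes whose products turn loaded rings into working helicases, 3 fell and all 8 estimates were below 0 (median -0.80). Mcm10, which helps start unwinding, showed the largest called decrease of the 51, to 0.225 of wild type. It measured 0.757, 1.92 and 2.49 CPM in Suz12 cKO, against 9.65, 5.58, 9.71 and 5.75 CPM in wild type (log2 fold change -2.15, SE 0.45, adjusted p = 0.0191), so that the highest Suz12 cKO library held less than the lowest wild type library. Dbf4, the activating subunit of the Cdc7 kinase, was at 13.4, 14.1 and 18.3 CPM in Suz12 cKO, against 27.6, 29.1, 22.3 and 21.96 CPM in wild type (log2 fold change -0.72, SE 0.17, adjusted p = 0.0311). Its catalytic partner Cdc7 overlapped between genotypes, at 3.01, 5.01 and 4.52 CPM in Suz12 cKO, against 6.29, 5.74, 4.75 and 4.62 CPM in wild type (log2 fold change -0.36, SE 0.28, adjusted p = 0.508). The log2 ratio of Cdc7 to Dbf4 was -1.89 ± 0.35 in Suz12 cKO and -2.24 ± 0.09 in wild type, which did not pass the exact permutation test (two-sided, p = 0.114, adjusted p = 0.183). Among the GINS subunits, which form part of the moving helicase, Gins2 was at 5.55, 4.46 and 7.86 CPM in Suz12 cKO, against 11.8, 9.21, 11.8 and 11.2 CPM in wild type (log2 fold change -0.88, SE 0.24, adjusted p = 0.0481). In the GENCODE annotation 67.3% of the Gins2 exon bases (2758 of 4097) are also exons of Gse1 on the other strand. The deposited Gins2 length is 1038 bases, so the counted model is smaller than that shared stretch. By RefSeq positions Gse1 ends at 120581383 and Gins2 begins at 120581266, so the spans overlap at an end. The effect on the Gins2 value was not tested, and Gse1 itself had a log2 fold change of 0.46 (adjusted p = 0.0126). Gins1, Gins3 and Gins4 had log2 fold changes of -0.55 (adjusted p = 0.259), -1.08 (adjusted p = 0.111) and -0.52 (adjusted p = 0.174), and Cdc45, the remaining partner of the ring, -1.15 (adjusted p = 0.0734). Cdc45, Gins1 and Gins3 did not overlap between genotypes. Calls here rested on few libraries: Mcm10 and Dbf4 were each lost in 3 of the 7 fits that left out a library and Gins2 in 5, with adjusted p up to 0.0665, 0.114 and 0.158, each highest without Suz12 cKO replicate 2. Suz12 cKO replicate 1 and wild type replicates 1, 3 and 4 also ended calls. Mcm8, a relative of the ring genes that acts in recombination repair with Mcm9, was at 1.63, 2.01 and 2.11 CPM in Suz12 cKO, against 4.85, 3.58, 6.17 and 6.12 CPM in wild type (log2 fold change -1.43, SE 0.33, adjusted p = 0.0294). That call held in the full set and without wild type replicate 2, and was lost without any other library (adjusted p up to 0.0977).

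Of the 9 genes for the replicative polymerases, 3 fell and all 9 estimates were below 0 (median -0.62). Pole, the catalytic subunit of the leading-strand polymerase epsilon, stood at 5.18, 2.51 and 2.38 CPM in Suz12 cKO, against 13.02, 8.50, 10.5 and 11.1 CPM in wild type. Its level was 0.312 of wild type (log2 fold change -1.68, SE 0.33, adjusted p = 0.0140). The primase subunit gene Prim2 was at 16.2, 13.7 and 13.96 CPM in Suz12 cKO, against 23.96, 23.9, 29.8 and 18.8 CPM in wild type (log2 fold change -0.72, SE 0.17, adjusted p = 0.0336). Pola2, the accessory subunit of polymerase alpha, was at 16.2, 15.7 and 12.4 CPM in Suz12 cKO, against 24.3, 24.01, 22.9 and 19.8 CPM in wild type (log2 fold change -0.62, SE 0.15, adjusted p = 0.0347). For both, the 2 groups were separate but the gap was small. At the other end, Pold2, a small subunit of the lagging-strand polymerase delta, was at 15.6, 10.2 and 8.40 CPM in Suz12 cKO, against 11.1, 11.1, 11.02 and 15.5 CPM in wild type (log2 fold change -0.10, SE 0.25, adjusted p = 0.873), and Pold3 of the same enzyme had a log2 fold change of -0.15 (adjusted p = 0.723). Within the libraries high in haemoglobin RNA the estimates for Pold2 and Pold3 were 0.21 and 0.51. The catalytic subunits Pola1 and Pold1 had log2 fold changes of -0.59 (adjusted p = 0.0634) and -0.62 (adjusted p = 0.140), the other primase subunit Prim1 -0.86 (adjusted p = 0.108), and Pole2 -0.73 (adjusted p = 0.282). Of these 4, Pole2 alone overlapped between genotypes. The Pole call was lost without Suz12 cKO replicate 2 (adjusted p = 0.0627), and those of Prim2 and Pola2 without any of the Suz12 cKO libraries or wild type replicates 1 and 3, with adjusted p up to 0.119 and 0.0889.

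Clamp, clamp loader, single-strand binding and lagging-strand genes gave 6 decreases among 11, with a median of -0.65. Pcna, the sliding clamp, was read most of the 51 and stood at 69.7, 76.5 and 74.9 CPM in Suz12 cKO, against 124, 116, 106 and 96.1 CPM in wild type (log2 fold change -0.59, SE 0.11, adjusted p = 0.0106). Its decrease to 0.666 of wild type held in each fit that left out a library. Reads of its annotated pseudogene copies may be counted with it. Fen1, the flap nuclease that trims Okazaki fragments, was at 14.6, 14.5 and 16.2 CPM in Suz12 cKO, against 28.7, 23.99, 30.4 and 28.1 CPM in wild type (log2 fold change -0.88, SE 0.13, adjusted p = 0.00445). The antisense gene Gm10143 covers 78.8% of the annotated Fen1 exon bases, so reads of the pair may not be separated. Lig1, the ligase that joins the trimmed fragments, had a log2 fold change of -0.66 (adjusted p = 0.0262). In replication protein A, which coats single-stranded DNA, Rpa2 was at 6.63, 6.61 and 8.69 CPM in Suz12 cKO, against 17.02, 17.5, 13.5 and 14.6 CPM in wild type (log2 fold change -1.10, SE 0.19, adjusted p = 0.00765). Rpa1 was at 44.8, 44.7 and 55.3 CPM in Suz12 cKO, against 70.1, 58.2, 70.4 and 70.3 CPM in wild type (log2 fold change -0.48, SE 0.12, adjusted p = 0.0340), and Rpa3 had a log2 fold change of -0.69 (adjusted p = 0.0798). The clamp loader was mixed. Rfc5 fell, with a log2 fold change of -0.69 (adjusted p = 0.0293), while Rfc1, Rfc2 and Rfc3 had log2 fold changes of -0.18 (adjusted p = 0.324), -0.34 (adjusted p = 0.154) and -0.65 (adjusted p = 0.193) without overlap between genotypes. In GENCODE 15.1% of the Rfc2 exon bases are also exons of Lat2 on the other strand, but the RefSeq spans of these genes do not overlap. Rfc4 did overlap, at 1.26, 4.29 and 4.84 CPM in Suz12 cKO, against 6.55, 4.64, 5.82 and 1.84 CPM in wild type (log2 fold change -0.44, SE 0.55, adjusted p = 0.701), and its estimate was 0.018 within the libraries low in haemoglobin RNA. Pcna, Fen1 and Rpa2 were called in all 7 fits that left out a library. Lig1, Rpa1 and Rfc5 were each lost in 5 of them, with adjusted p up to 0.100, 0.129 and 0.0927. This occurred without Suz12 cKO replicates 1 or 2 and wild type replicates 1 or 3 in each case, and also without Suz12 cKO replicate 3 for Rfc5 and wild type replicate 4 for Lig1 and Rpa1.

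Of 5 genes that supply deoxynucleotides for S phase, 4 fell, with a median log2 fold change of -1.10. Tk1, the cytosolic thymidine kinase of dividing cells, stood at 4.06, 7.69 and 9.43 CPM in Suz12 cKO, against 25.2, 20.1, 20.8 and 20.8 CPM in wild type and was at 0.325 of wild type (log2 fold change -1.62, SE 0.27, adjusted p = 0.00765). Rrm2, the ribonucleotide reductase subunit that is made in S phase, was at 8.70, 9.93 and 14.8 CPM in Suz12 cKO, against 37.4, 28.3, 28.3 and 29.7 CPM in wild type (log2 fold change -1.47, SE 0.21, adjusted p = 0.00378). In both genes the highest Suz12 cKO library was well under the lowest wild type library. Dut, which removes dUTP, was at 9.33, 7.20 and 5.79 CPM in Suz12 cKO, against 16.95, 15.4, 12.8 and 18.8 CPM in wild type (log2 fold change -1.10, SE 0.22, adjusted p = 0.0152). Tyms, thymidylate synthase, was not called, at 4.04, 5.21 and 7.37 CPM in Suz12 cKO, against 15.2, 8.57, 11.96 and 9.13 CPM in wild type (log2 fold change -1.02, SE 0.29, adjusted p = 0.0596), although its genotypes did not overlap. Reads of a Tyms pseudogene may be counted with it. Rrm1, the large reductase subunit, fell with a log2 fold change of -0.55 (adjusted p = 0.0328). Tk1 and Rrm2 kept their calls in each fit that left out a library, the Dut call was lost without Suz12 cKO replicate 2 (adjusted p = 0.0663), and that of Rrm1 without any Suz12 cKO library or wild type replicates 1 and 3 (adjusted p up to 0.124).

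Both of these S phase enzymes have counterparts that serve cells outside S phase, and neither of these was called lower. Rrm2b, the reductase subunit used for repair and mitochondrial DNA, stood at 25.7, 26.7 and 30.8 CPM in Suz12 cKO, against 27.3, 22.8, 28.7 and 21.5 CPM in wild type (log2 fold change 0.15, SE 0.14, adjusted p = 0.602), with overlapping libraries. Tk2, the mitochondrial thymidine kinase, was higher, at 55.8, 56.5 and 54.3 CPM in Suz12 cKO, against 44.5, 39.5, 47.6 and 42.2 CPM in wild type (log2 fold change 0.35, SE 0.09, adjusted p = 0.0446). Within each library the log2 ratio of Rrm2 to Rrm2b counts was -1.35 ± 0.27 in Suz12 cKO and 0.30 ± 0.23 in wild type, a difference of -1.65. The log2 ratio of Tk1 to Tk2 was -3.06 ± 0.65 in Suz12 cKO and -1.002 ± 0.15 in wild type, a difference of -2.06. Each of these 2 ratios was separate between genotypes and reached the smallest p that 3 against 4 libraries allow (exact permutation test, two-sided, p = 0.0571; adjusted over 8 ratios p = 0.183), which is above 0.05.

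Chromatin assembly factor 1 places histones behind the fork. Its large subunit Chaf1a was at 10.5, 6.17 and 10.2 CPM in Suz12 cKO, against 23.3, 15.2, 16.3 and 21.8 CPM in wild type (log2 fold change -1.10, SE 0.25, adjusted p = 0.0254). Chaf1b was at 7.21, 7.92 and 10.3 CPM in Suz12 cKO, against 17.6, 13.7, 16.4 and 14.5 CPM in wild type (log2 fold change -0.87, SE 0.19, adjusted p = 0.0215). Both fell, without overlap between genotypes, and their ratio did not pass the test (log2 ratio 0.06 ± 0.46 in Suz12 cKO and 0.28 ± 0.26 in wild type; exact permutation test, two-sided, p = 0.400, adjusted p = 0.457). In GENCODE, exons of Ubxn6 on the other strand share 52.5% of the Chaf1a exon bases (4648 of 8854). These are more bases than the deposited Chaf1a length of 3308. By RefSeq positions Ubxn6 begins at 56067045 and Chaf1a ends at 56068026, so the spans overlap at an end. The effect on the Chaf1a value was not tested, and Ubxn6 had a log2 fold change of 0.12 (adjusted p = 0.644). Each call was lost in 4 of the 7 fits that left out a library, those without Suz12 cKO replicates 1 or 2 and wild type replicate 1, and also wild type replicate 4 for Chaf1a and 3 for Chaf1b, with adjusted p up to 0.0754 and 0.0894.

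The 3 remaining ratios compared genes within the machinery. Orc1 to Orc4 differed by -3.26 on the log2 scale, Orc6 to Orc4 by -0.60 and Mcm2 to Rpa1 by -0.12 (Suz12 cKO minus wild type). Exact permutation p was 0.114, 0.171 and 0.514 (two-sided; adjusted 0.183, 0.229 and 0.514), so none passed. The Orc1 ratio in Suz12 cKO replicate 3 rests on a count of 0 to which 0.5 was added, and without that library the Orc1 to Orc4 difference was -0.94.

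Levels were compared between genes per length, as RPKM (TMM-scaled CPM per kilobase of deposited gene length). Pcna had the highest level of the 51 in both genotypes, with 58.5 ± 2.80 RPKM in Suz12 cKO and 87.8 ± 9.66 RPKM in wild type. Gmnn came next in wild type, with 11.7 ± 2.82 RPKM in Suz12 cKO and 24.7 ± 3.45 RPKM in wild type. Rpa1 and Rfc2 followed, with 15.5 ± 1.95 RPKM in Suz12 cKO and 21.7 ± 1.94 RPKM in wild type for Rpa1 and 16.1 ± 0.628 RPKM in Suz12 cKO and 20.4 ± 3.10 RPKM in wild type for Rfc2, and in each genotype the gap between them was within their SD. At the low end were Orc1 with 0.224 ± 0.207 RPKM in Suz12 cKO and 0.585 ± 0.231 RPKM in wild type and Cdc6 with 0.213 ± 0.211 RPKM in Suz12 cKO and 1.12 ± 0.413 RPKM in wild type. Within the helicase ring, Suz12 cKO levels were 12.9 ± 0.432 for Mcm3, 9.29 ± 0.637 for Mcm7, 9.05 ± 0.847 for Mcm6, 8.03 ± 1.13 for Mcm4, 5.03 ± 0.356 for Mcm2 and 3.15 ± 0.344 RPKM for Mcm5. In wild type they were 18.6 ± 1.91 for Mcm6, 18.3 ± 1.81 for Mcm3, 17.6 ± 2.83 for Mcm7, 12.2 ± 1.42 for Mcm4, 8.29 ± 0.882 for Mcm5 and 7.69 ± 0.930 RPKM for Mcm2. The gaps between Mcm7 and Mcm6 in Suz12 cKO, among Mcm6, Mcm3 and Mcm7 in wild type and between Mcm5 and Mcm2 in wild type were within their SD. Across the 51 genes, Spearman's rho between the log2 fold change and the wild type RPKM was 0.224. Pearson's r between the log2 fold change and the log2 wild type RPKM was 0.407. The wild type level enters both quantities, and both values are descriptions over genes that share the same 7 libraries.

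**Figure D2:**
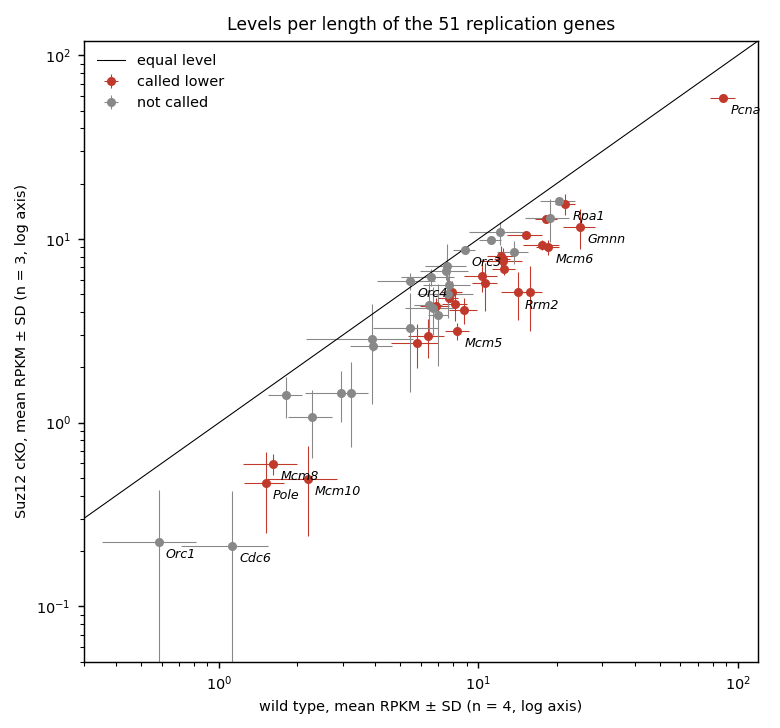
Mean RPKM ± SD of each of the 51 replication genes in Suz12 cKO (vertical axis, n = 3) against wild type (horizontal axis, n = 4), both on log axes, red where called lower; the line marks equal levels. Most points lie under the line, and Orc4, at 5.90 RPKM in Suz12 cKO and 5.44 RPKM in wild type, lies just above it.

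Other genes of the fork changed in part. Of 37 listed fork genes outside the 51, 9 fell (24.3%, against 4.02% of all tested genes) and 0 rose, and the median log2 fold change was -0.46. Esco2, which acetylates cohesin during S phase, was at 1.67, 1.87 and 1.48 CPM in Suz12 cKO, against 12.6, 6.12, 9.64 and 9.03 CPM in wild type (log2 fold change -2.48, SE 0.30, adjusted p = 0.00206). Uhrf1, which brings maintenance DNA methylation to the fork, was at 7.62, 5.86 and 4.45 CPM in Suz12 cKO, against 21.3, 17.3, 15.1 and 23.7 CPM in wild type (log2 fold change -1.69, SE 0.24, adjusted p = 0.00392). Topbp1, which helps fire origins and activates the checkpoint kinase ATR, was at 38.5, 33.3 and 43.5 CPM in Suz12 cKO, against 69.8, 68.7, 60.8 and 63.1 CPM in wild type (log2 fold change -0.77, SE 0.11, adjusted p = 0.00422). All 3 genes were separate between genotypes. Wdhd1, Chtf18, Rnaseh2a, Asf1b, Mms22l and Hells also fell, with log2 fold changes between -0.68 and -1.49. Leaving out Suz12 cKO replicate 1, wild type replicate 1 or wild type replicate 3 gave 3 calls in place of 9, and leaving out Suz12 cKO replicate 2 gave 4.

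Of 25 other nucleotide metabolism genes, 4 fell and 1 rose, the last being Tk2 (median log2 fold change -0.18). These are 16% and 4%, against 4.02% and 6.28% of all tested genes. Dck, deoxycytidine kinase, was at 27.3, 27.7 and 37.6 CPM in Suz12 cKO, against 58.96, 57.1, 76.1 and 67.1 CPM in wild type (log2 fold change -1.07, SE 0.15, adjusted p = 0.00381). Nme1, a nucleoside diphosphate kinase, was at 24.8, 28.5 and 30.5 CPM in Suz12 cKO, against 39.7, 35.2, 41.9 and 45.9 CPM in wild type (log2 fold change -0.54, SE 0.13, adjusted p = 0.0283). Dctpp1, which clears surplus dCTP, was at 6.15, 7.77 and 5.55 CPM in Suz12 cKO, against 14.1, 9.37, 10.9 and 13.4 CPM in wild type (log2 fold change -0.88, SE 0.22, adjusted p = 0.0380). These 3 genes were separate between genotypes, and Nme2, the other gene that fell, had a log2 fold change of -0.52 (adjusted p = 0.0385). Samhd1, which degrades deoxynucleotides in resting macrophages, was at 436, 418 and 376 CPM in Suz12 cKO, against 350.4, 357, 458 and 480.1 CPM in wild type (log2 fold change -0.01, SE 0.13, adjusted p = 0.989), with overlapping libraries. Nme2 and Samhd1 were named after their values were seen. Of 14 tested polymerase genes for repair, lesion bypass and mitochondrial DNA, edgeR called 0, against 4.02% lower and 6.28% higher of all tested genes. An unadjusted p under 0.05 was found for 3 of them, and the share of all genes at that cut is not given here. The smallest p among them belonged to Polh, Polg2 and Polk. Polh, a bypass polymerase for ultraviolet lesions, was at 10.2, 9.32 and 12.7 CPM in Suz12 cKO, against 20.9, 12.7, 17.9 and 19.8 CPM in wild type (log2 fold change -0.73, SE 0.21, adjusted p = 0.0637). Polg2, the accessory subunit of the mitochondrial polymerase, was at 3.53, 5.04 and 4.90 CPM in Suz12 cKO, against 6.05, 9.04, 6.40 and 7.34 CPM in wild type (log2 fold change -0.68, SE 0.25, adjusted p = 0.133). Polk, another bypass polymerase, was at 22.9, 31.4 and 26.2 CPM in Suz12 cKO, against 19.9, 23.6, 19.98 and 17.4 CPM in wild type (log2 fold change 0.41, SE 0.15, adjusted p = 0.139). Libraries of the genotypes overlapped for Polh and Polk and not for Polg2. Of 11 genes of the S phase checkpoint, Chek2 alone fell (9.09%, against 4.02% of all tested genes). This kinase, which acts downstream of ATM, was at 11.6, 7.89 and 11.6 CPM in Suz12 cKO, against 23.8, 16.7, 21.4 and 18.7 CPM in wild type (log2 fold change -0.96, SE 0.20, adjusted p = 0.0182). Wee1, which restrains the cyclin-dependent kinases, was at 4.29, 1.90 and 5.46 CPM in Suz12 cKO, against 8.88, 5.48, 9.20 and 9.71 CPM in wild type (log2 fold change -1.10, SE 0.38, adjusted p = 0.109). Chek1, the kinase downstream of ATR, was at 2.04, 1.77 and 0.616 CPM in Suz12 cKO, against 3.50, 4.32, 2.95 and 1.71 CPM in wild type (log2 fold change -1.08, SE 0.55, adjusted p = 0.270). Chek1 alone of these 3 overlapped between genotypes.

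Upstream of S phase entry, 4 of 38 listed regulators rose (10.5%, against 6.28% of all tested genes) and 9 fell (23.7%, against 4.02%). Those that rose were the D-type cyclin genes Ccnd1 and Ccnd2 and the neighbouring genes Cdkn2a and Cdkn2b, which encode CDK inhibitors. Counts were per gene, so Cdkn2a transcripts that encode a CDK inhibitor were not told apart from its other transcripts. Ccnd2 stood at 502, 507 and 429 CPM in Suz12 cKO, against 114, 173, 105 and 89.6 CPM in wild type (log2 fold change 1.99, SE 0.21, adjusted p = 0.00105). Ccnd1 was at 20.1, 17.5 and 37.9 CPM in Suz12 cKO, against 6.27, 12.7, 7.29 and 7.13 CPM in wild type (log2 fold change 1.59, SE 0.33, adjusted p = 0.0175). Cdkn2b was at 25.2, 21.7 and 30.3 CPM in Suz12 cKO, against 6.31, 6.22, 2.91 and 3.90 CPM in wild type (log2 fold change 2.41, SE 0.29, adjusted p = 0.00191). Cdkn2a was at 177, 163 and 171 CPM in Suz12 cKO, against 15.5, 16.4, 1.02 and 2.87 CPM in wild type (log2 fold change 4.24, SE 0.79, adjusted p = 0.0118). None of these 4 genes overlapped between genotypes. Among the decreases was Ccna2, the cyclin that drives S phase, at 9.86, 7.69 and 10.6 CPM in Suz12 cKO, against 27.7, 24.98, 26.04 and 28.2 CPM in wild type (log2 fold change -1.51, SE 0.15, adjusted p = 0.00102). Ccne1, the cyclin of S phase entry, was at 2.89, 1.80 and 1.15 CPM in Suz12 cKO, against 8.09, 4.61, 7.25 and 5.98 CPM in wild type (log2 fold change -1.74, SE 0.39, adjusted p = 0.0254). The remaining genes that fell, E2f2, E2f7, Tfdp1, Rbl1, Cdk2, Fbxo5 and Myc, had log2 fold changes of -1.01, -2.25, -0.50, -0.81, -0.64, -1.97 and -0.93. E2f1, an activator of many replication genes, was not called, at 48.2, 34.3 and 38.1 CPM in Suz12 cKO, against 48.2, 52.5, 54.4 and 50.5 CPM in wild type (log2 fold change -0.35, SE 0.13, adjusted p = 0.119). In this list, genes other than Ccna2, Ccnd2 and Cdkn2b were named after their values were seen.

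**Figure D3:**
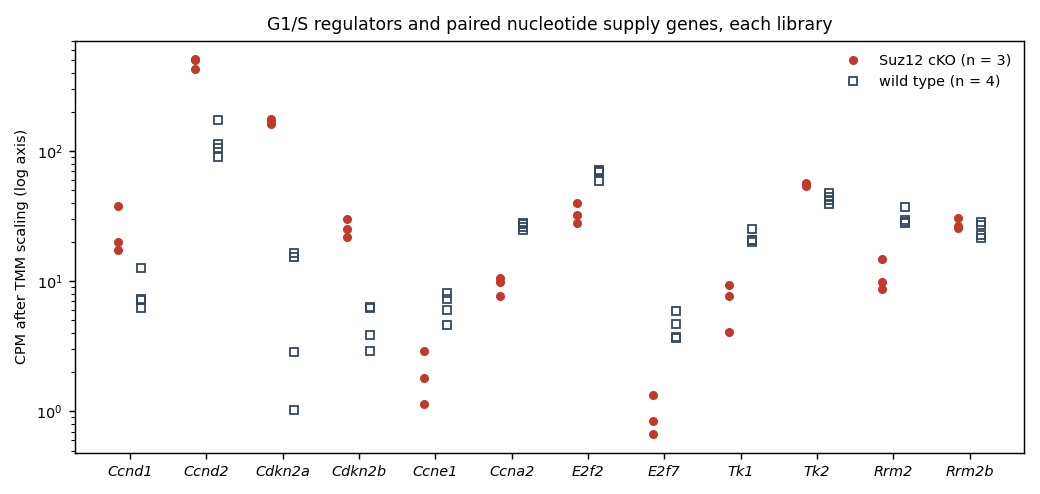
CPM after TMM scaling (log axis) of 8 G1/S regulators and of the Tk1 and Tk2 and the Rrm2 and Rrm2b pairs, with 1 filled circle per Suz12 cKO library and 1 open square per wild type library. Ccnd1, Ccnd2, Cdkn2a, Cdkn2b and Tk2 are higher in every Suz12 cKO library, Rrm2b overlaps, and the other 6 genes are lower.

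Among mitotic genes, which act in the later part of the cell cycle, 32 of 40 were called lower (80%, against 4.02% of all tested genes) and 0 higher. Their median log2 fold change was -1.57, against -0.69 for the replication genes. The 3 with the smallest p did not overlap between genotypes. Top2a, the topoisomerase that untangles sister chromatids, was at 26.8, 24.4 and 26.3 CPM in Suz12 cKO, against 83.6, 79.4, 87.6 and 78.1 CPM in wild type (log2 fold change -1.67, SE 0.09, adjusted p = 1.1e-04). Ncapd2, a condensin subunit, was at 21.7, 18.7 and 20.4 CPM in Suz12 cKO, against 55.3, 49.8, 52.01 and 53.4 CPM in wild type (log2 fold change -1.38, SE 0.10, adjusted p = 4.4e-04). Kif23, a motor protein of cell division, was at 12.6, 13.3 and 15.1 CPM in Suz12 cKO, against 47.8, 37.8, 39.3 and 38.9 CPM in wild type (log2 fold change -1.59, SE 0.13, adjusted p = 4.6e-04). The mean over each list was 2.52 to 2.66 log2 CPM in Suz12 cKO and 4.07 to 4.44 log2 CPM in wild type for mitosis, and 3.25 to 3.38 log2 CPM in Suz12 cKO and 4.06 to 4.30 log2 CPM in wild type for replication. Whether the 2 lists differ was not tested.

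**Figure D4:**
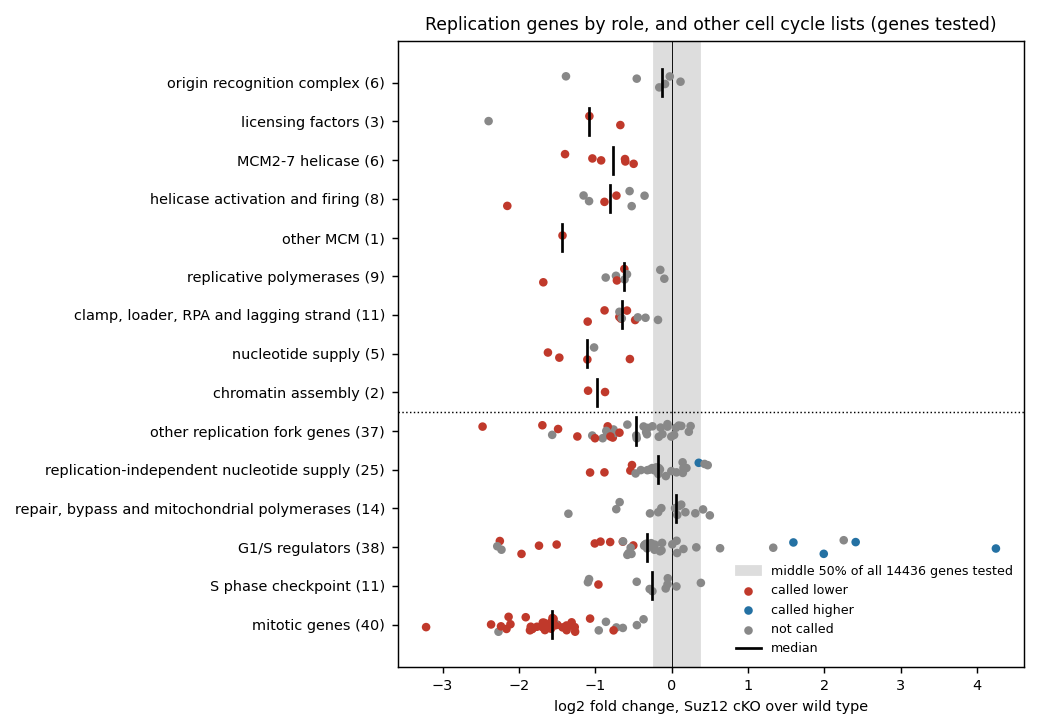
Log2 fold change of Suz12 cKO over wild type for each tested gene of the 9 role groups of the replication machinery (above the dotted line) and of 6 other lists, with the number of genes tested in brackets; red is called lower, blue called higher, grey not called, black bars are medians, and the grey band holds the middle 50% of all genes tested. The origin recognition complex and the repair polymerases have medians near 0, and mitotic genes have the lowest median of the 6 other lists, -1.57.

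The number of calls depended on which libraries were used, and each count below stands beside the share of all genes called lower in the same fit. Within the 4 libraries low in haemoglobin RNA (Suz12 cKO replicate 3 and wild type replicates 1, 3 and 4) the median log2 fold change of the 51 was -0.59, with 49 estimates below 0 and 13 (all genes 2.43%) called lower. Within the 3 high ones (Suz12 cKO replicates 1 and 2 and wild type replicate 2) it was -0.67, with 46 below 0 and 8 (all genes 2.08%) called lower. Each of these fits has a genotype with a single library, whose spread is taken from the other genotype, so the part of RNA from other cells in the result was not tested by them. With a term for haemoglobin RNA 24 (all genes 4.15%) were called lower. Without Suz12 cKO replicates 1, 2 or 3 the count of 27 became 13 (all genes 2.06%), 9 (all genes 1.81%) or 23 (all genes 3.18%). Without wild type replicates 1, 2, 3 or 4 it became 12 (all genes 2.10%), 28 (all genes 6.27%), 15 (all genes 2.22%) or 22 (all genes 2.87%). In each of these 10 fits 0 of the 51 were called higher. Calls of 9 genes, Gmnn, Mcm5, Mcm6, Mcm7, Pcna, Rpa2, Fen1, Tk1 and Rrm2, stood in all 7 fits that left out a library. The summed levels of neutrophil markers and of monocyte and interstitial macrophage markers moved with genotype. So did the sum of fibroblast and smooth muscle markers, at 35.2 to 45.3 CPM in Suz12 cKO and 4.66 to 27.6 CPM in wild type. Of the 7 tested genes of that list 1 was called higher (14.3%, against 6.28% of all tested genes) and 0 lower, and 5 estimates were below 0. The part of these 3 lists in the results was not tested.

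**Figure D5:**
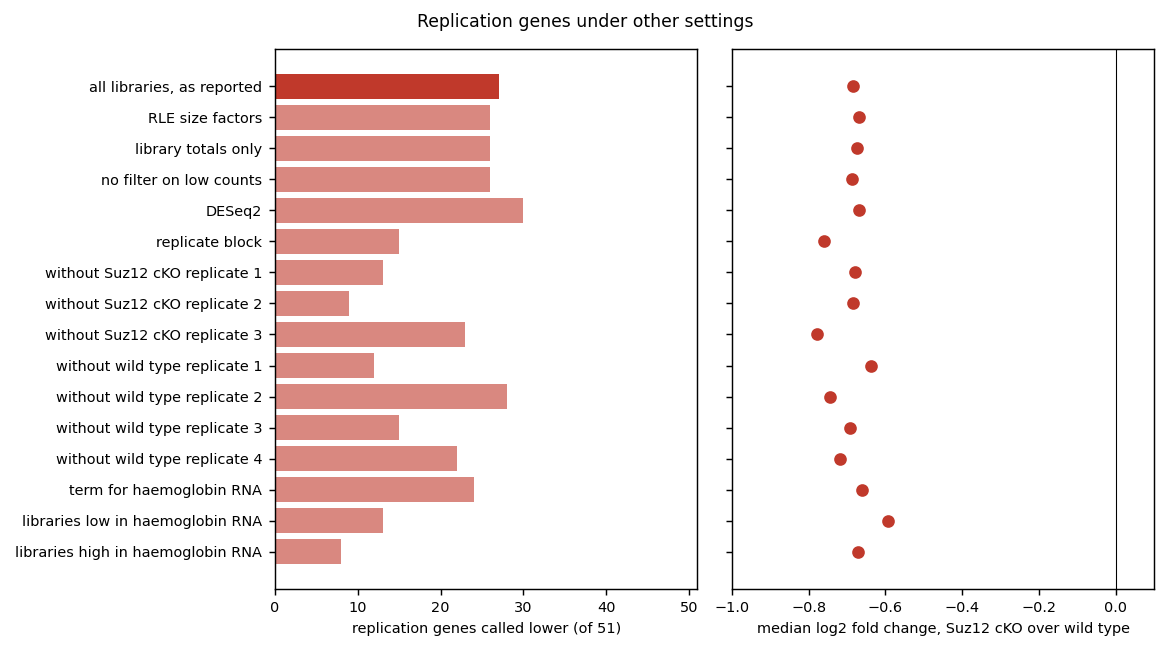
Number of the 51 replication genes called lower in Suz12 cKO (left) and their median log2 fold change of Suz12 cKO over wild type (right), as reported and under each of 15 other settings. The number ranges from 8 to 30, while the median stays between -0.78 and -0.59.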

How the data were processed

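The authors deposited raw read counts per gene as 1 table of all samples, used here, and as 1 table per sample with the same counts (7 of 7 were equal); for these the submitters' processing notes name featureCounts and mm10, and the sources used here do not give versions, aligner, annotation or strand setting. The authors' deposited gene length was used for RPKM. TruSeq libraries were read as single ends of 85 bp, per the series' design text, which states 14 to 20 M reads per sample, fewer than the counts per library.

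Symbols and positions came from RefSeq (GRCm38.p6) by Entrez number (25275 of 27179 genes), and shared exons from GENCODE vM21 on the same assembly. Genes were filtered with filterByExpr (minimum count 10, minimum total 15; 14436 genes left) and compared with edgeR 4.0.16 in R 4.3.3 (TMM scaling, quasi-likelihood test, genotype as the sole term, all 7 libraries). DESeq2 1.42.0 was an alternative. The standard error is the size of the log2 fold change divided by the square root of F. Ratios used counts with 0.5 added and an exact permutation test. Mean log2 CPM used a prior count of 2. The fit was tested on simulated counts. Replicates of a group correlated with r between 0.916 and 0.969 and none was a copy of another. Nothing says that replicates share an origin across genotypes.

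Members, lists and alternatives were chosen with earlier results of these data known, the split by haemoglobin (above 20 CPM) included. Named with full values are, in each role group, the 3 genes with the smallest p and the gene with the largest, in each other list the 3 with the smallest p, and genes of the ratios. Siglecf, Alas2, Retnlg, Samhd1, Ccnd1, Cdkn2a, Ccne1 and E2f1 lie outside this rule and were named after their values were seen, and the rule's highest gene of each marker list is not given singly. By the rule for sequences, the member with the smallest p of each role group and that with the largest p of all, promoters of Orc6, Mcm10, Fen1 and Chaf1b were also read; they hold no E2F-type match and are not printed.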

Additional observations from a re-analysis of the deposited data

Results flagged for a closer look

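In 5 of the 51 replication genes 1 wild type library stood far from the other 3 by Dixon's ratio of gap to range, whose 95% critical value for 4 samples is 0.829; chance gives about 1 such group in 20, and the 3 Suz12 cKO libraries are too few for it. Wild type replicate 4 was high for Pold1 (5.16 against 4.50 to 4.58 log2 CPM, ratio 0.871) and for Pold2 (3.96 against 3.47 to 3.48 log2 CPM, ratio 0.968), both subunits of polymerase delta. Wild type replicate 1 was high for Gins1 (3.15 against 2.80 to 2.84 log2 CPM, ratio 0.879) and for Tk1 (4.66 against 4.33 to 4.38 log2 CPM, ratio 0.833). Wild type replicate 2 was low for Rpa1 (5.86 against 6.13 to 6.14 log2 CPM, ratio 0.979).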

How the results depend on the processing

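Over 15 other settings the 51 genes gave 765 values: 611 kept their direction and call, 127 lost the call, 12 gained it and 15 changed sign. Mcm5, Mcm6, Tk1 and Rrm2 were called in all 15. With RLE factors, library totals or no filter 26 genes were called lower, all among the 27, and DESeq2 called 30 with all 27 among them. DESeq2 called 2241 genes in all and 15 other fork genes. Leaving out 1 library gave 9 to 28 replication genes lower, 715 to 2400 genes in all, 3 to 13 other fork genes and 24 to 35 mitotic genes. Within the libraries low in haemoglobin RNA 13 replication genes, 3 other fork genes and 983 genes in all were called, and within the high ones 8 replication genes; these fits use fewer libraries. With a replicate block on numbers 1 to 3, 15 replication genes and 810 genes in all were called, from 6 libraries. Same-numbered libraries had deviations correlated at -0.0411, 0.242 and 0.158. Suz12 cKO replicates 2 and 3 each correlated best with the wild type library of their own number. Suz12 cKO replicate 1 correlated best with wild type replicate 2 (0.113). As nothing says that the numbers mark pairs, they were not taken as such.

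Log2 fold changes of genes not called in the full set changed sign: Orc2 (0.014 in low-haemoglobin libraries), Orc3 (-0.075 to 0.041 when 1 library was left out, 0.011 with a haemoglobin term, 0.10 in high-haemoglobin libraries), Orc4 (-0.036 with the replicate block, -0.041 to 0.22 with 1 left out, -0.085 in low libraries), Orc5 (-0.24 to 0.0023 with 1 left out, 0.038 in high libraries), Pold2 (-0.41 to 0.065 with 1 left out, 0.21 in high libraries), Pold3 (0.0055 with a haemoglobin term, 0.51 in high libraries) and Rfc4 (0.018 in low libraries). Differences in log2 ratio moved for Cdt1 to Gmnn (0.14) and Mcm2 to Rpa1 (-0.35) in high libraries, and for Rrm2 to Rrm2b (-1.35), Tk1 to Tk2 (-1.51) and Orc1 to Orc4 (-7.67) in low ones; the cause was not tested. Counts of 0 for Orc1 and Cdc6 in Suz12 cKO replicate 3 limit what can be said of these 2 genes.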

Other observations

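A further pair of promoter motifs was searched in the same windows, on both strands. A CCAAT box was found for 25 of 43 replication genes (58.1%) and 42.7% of other tested genes with a window. The letters TTTGAA, a form of the cell cycle homology region of late cell cycle genes, were found for 7 of 43 (16.3%) and 14.7%. Neither share was tested.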
